A study of Mus musculus with 22 samples.

Results

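The histone genes encode the proteins around which nuclear DNA is wound. They were taken here as every array probe whose transcript belongs to a gene with a current or older histone symbol, and 68 probes of 56 genes met this, out of 21154 genes with a named probe. Of these, 40 genes (44 probes) carry symbols of the replication-dependent clusters and 16 genes (24 probes) are variants. The family was selected on measured values, because several members stood among the large decreases at 3 months, so at that age the values, and the calls that sort them, only describe the members, and no p-value is given for a member. Of the 93 histone genes of this naming in RefSeq, 37 had no probe and are not analysed here.

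Hippocampal RNA was hybridised from TgproNGF#3 mice and wild-type (WT) mice, 1 mouse per one-colour Agilent array. TgproNGF#3 is 1 transgenic line that carries a furin-resistant pre-proNGF cDNA followed by an IRES and EGFP, behind the Thy1.2 promoter, which drives expression in neurons. WT mice lacked the transgene, all mice were of the C57Bl/6xDBA/2 background, none was treated, and the hippocampus of the right hemisphere was used. The groups were 4 TgproNGF#3 and 4 WT males of 1 month, 4 and 4 males of 3 months, and 3 and 3 females of 12 months. Each age was hybridised on its own slide, so age, slide and, at 12 months, sex cannot be told apart. At 12 months the row of the slide on which a mouse lay also nearly matched its genotype.

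Replication-dependent histones (H4, H3, H2A and H2B of the nucleosome core, and H1 linker histones) are made mainly while a cell copies its DNA. Their genes lie in clusters, have no introns, and give mRNAs that end in a stem-loop in place of a poly(A) tail, a structure bound by the protein Slbp. The variants, such as H3.3, H2A.Z, macroH2A and H1.0, come from single genes, have mostly polyadenylated mRNAs and are made through the whole cell cycle, and neurons, which no longer divide, rely on them. H2ax gives mRNAs of both kinds. According to the labels, poly A+ RNA was labelled, whereas the molecule is entered as total RNA.

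Levels are log2 signal relative to the 75th percentile of each array. Between 57.6% and 80.3% of the non-control spots of an array were well above background, with the lowest value in TgproNGF#3 replicate 4 of 3 months, and 50 of the 68 histone probes were well above background on all 22 arrays. Probes of H3c1 and H2ab1 were not well above background on any array. All 12 hippocampal neuron markers were well above background on all arrays. Many replication-dependent genes encode nearly identical mRNAs, so a probe may read several of them, and no probe sequence was used here to separate them.

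The promoters of 3 replication-dependent genes are shown, H4c4 (older symbol Hist1h4d) and H2ac4 (Hist1h2ab) because they were among the largest decreases at 3 months, and H2ac12 (Hist1h2ah) because its probe was well above background on every array and was not called. Each run is the 150 bases before the gene start from RefSeq (GRCm38.p6), and capitals mark the letters CCAAT or TATAAA on either strand, so also ATTGG and TTTATA. The windows are chr13:23581418-23581567 (plus strand), chr13:23750938-23751087 (plus strand) and chr13:22035644-22035793 (minus strand).
H4c4: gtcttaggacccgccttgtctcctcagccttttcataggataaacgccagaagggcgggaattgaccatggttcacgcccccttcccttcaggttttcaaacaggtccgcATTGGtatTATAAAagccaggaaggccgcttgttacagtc
H2ac4: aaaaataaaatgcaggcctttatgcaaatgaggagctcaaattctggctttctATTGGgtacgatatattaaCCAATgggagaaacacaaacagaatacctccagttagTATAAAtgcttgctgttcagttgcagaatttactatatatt
H2ac12: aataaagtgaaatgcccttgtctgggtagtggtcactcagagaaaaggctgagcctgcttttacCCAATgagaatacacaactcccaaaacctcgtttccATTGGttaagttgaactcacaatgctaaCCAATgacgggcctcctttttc
The H4c4 and H2ac4 windows held both motifs, and that of H2ac12 held CCAAT only. CCAAT was present in 29 of the 35 replication-dependent windows that matched the table and in 24.5% of the 32851 windows of all genes, and TATAAA in 16 of the 35 and in 7.57% of all. Among the 14 replication-dependent genes with a window that were called lower at 3 months, 9 held CCAAT and 6 held TATAAA, against 15 and 7 of the 16 tested genes that were not called. A match is a description of the letters and not a binding site.

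At 3 months, H4 probes and single probes of H3, H2A, H2B and H1 were lower in TgproNGF#3 than in WT hippocampus, while the brightest H2A probes and most variants lay close to the other genes of the array. A probe was called, here as a label for the size of a difference and not as a test of the family, when the unadjusted p of limma was under 0.05 and the absolute log2 fold change (Log2 FC, TgproNGF#3 minus WT) was above 1. By this rule 18 of 37 tested replication-dependent probes and 2 of 20 tested variant probes were called lower, and none was called higher. Over all probes 6.12% were called lower and 0.643% higher. The median Log2 FC was -0.72 for replication-dependent probes and -0.14 for variants, against -0.12 for all probes. All 37 replication-dependent values were below 0. The ranges of the genotypes did not overlap for 21 of the 57 tested histone probes, as for 20.3% of all probes, and TgproNGF#3 was the lower genotype in all 21. Since this contrast led to the choice of the family, no support is drawn from these counts. Just past the fold threshold lay H2ac15 (-1.06, probe A_52_P498208) and H4c17 (-1.09), and just short of it H1f8 (-0.79) and H1f5 (-0.72).

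**Figure D1:**
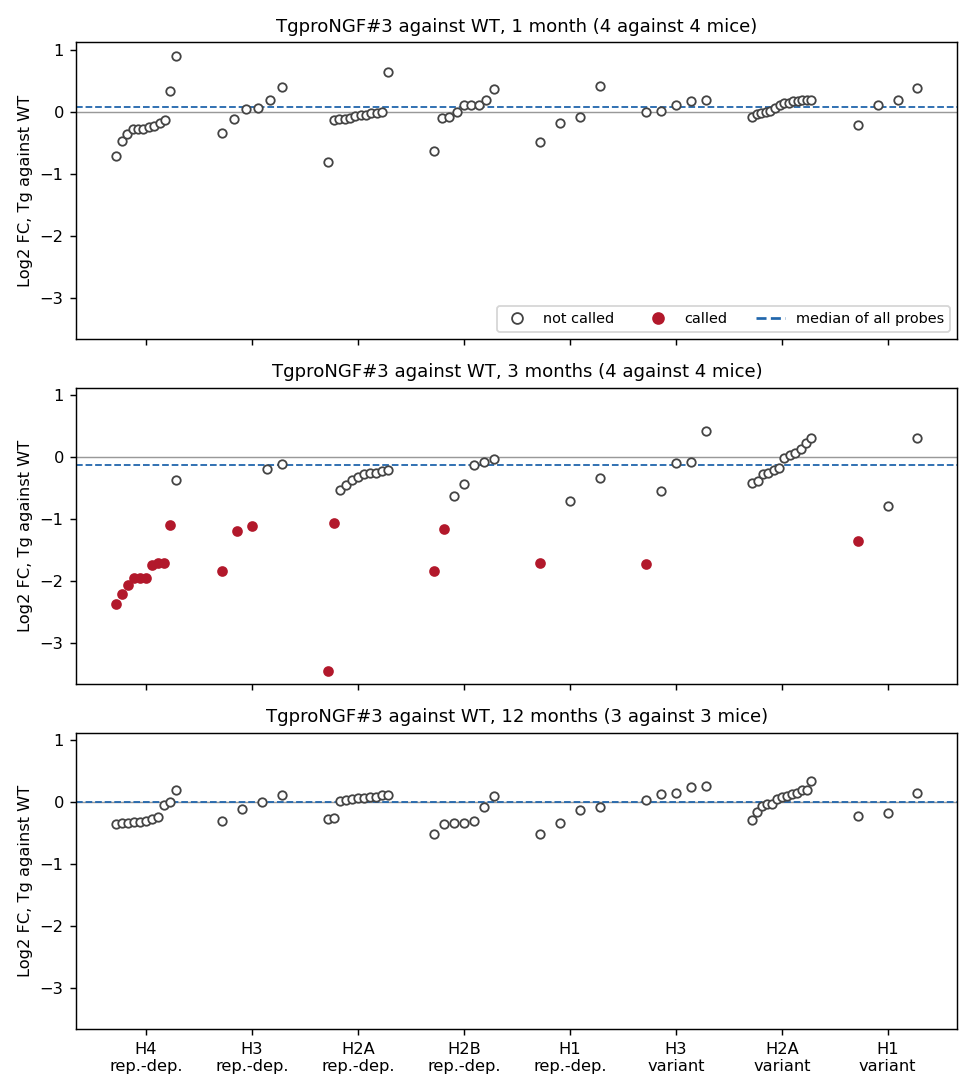
Log2 FC of each tested histone probe (vertical axis) by histone type and class (horizontal axis) in the 3 ages. Filled points were called, open points were not, and the dashed line is the median of all probes. The called probes are all at 3 months and below 0, with 10 of the 11 H4 probes among them, and no probe was called at 1 or 12 months.

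Histone H4, which pairs with H3 at the centre of the nucleosome, was the most uniform type, with 10 of 11 tested probes, of 8 genes, called lower at 3 months. The brightest H4 probe, H4c4 (A_55_P2106569), had levels of 0.82, 1.60, 1.27 and -0.06 in the 4 TgproNGF#3 mice and of 3.69, 2.43, 3.11 and 3.23 in the 4 WT mice. The groups did not overlap, and replicate 4 was the lowest TgproNGF#3 mouse. Its means were 0.91 ± 0.72 and 3.11 ± 0.52 (SD, n = 4 each) and its Log2 FC was -2.21 ± 0.37 (SE). The second H4c4 probe gave -2.06. H4c3 (Hist1h4c) had the largest H4 difference, with levels of -5.64, -5.14, -4.72 and -6.29 against -2.70, -3.57, -3.36 and -2.68, again without overlap, and a Log2 FC of -2.38 ± 0.34 (SE). H4c9 (Hist1h4i) was the least variable, with TgproNGF#3 levels from -5.23 to -5.06 and WT levels from -3.48 to -3.04. Its Log2 FC was -1.95 ± 0.14 (SE).

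The other H4 probes called lower were both probes of H4c12 (-1.70 and -1.95), H4c11 (-1.94), H4c14 (-1.73), H4f16 (-1.71, older symbol Hist4h4, which lies outside the large clusters) and H4c17 (-1.09). H4c17 was dim, with a value in 3 of 4 TgproNGF#3 mice, at -6.76 to -6.47. The probe of H4c8 (Hist1h4h) was the exception, with TgproNGF#3 levels of -3.48 to -2.67 around the WT levels of -2.92 to -2.79 and a Log2 FC of -0.36 ± 0.19 (SE). On the 14 arrays of 1 and 12 months, deviations from the group mean at the other H4c4 probe and the H4c12, H4c14, H4c11, H4f16 and H4c3 probes followed those of the brightest H4c4 probe with Pearson's r of 0.96 to 0.99. For H4c17 and H4c9 the r were 0.75 and 0.62. These probes share arrays and may share targets, so they count as few independent readings of H4. The r of H4c8 was -0.36. Among probes of other types called at 3 months, r was 0.85 for H1f4, 0.82 for H2bc18 and 0.78 for H2ac4. It was 0.40 for H2bc6, 0.37 for H2ac15 (A_52_P498208) and 0.36 for H3c7. For H3f3a (A_55_P2078266), H3c13, H3c3 and H1f0 it was 0.14, 0.02, -0.04 and -0.57.

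Among replication-dependent H3 probes, H3c3 (Hist1h3c), H3c13 (Hist2h3b) and H3c7 (Hist1h3f) were called lower at 3 months. H3c3 had levels of -2.66, -2.62, -2.56 and -3.17 in TgproNGF#3 and of -1.29, -0.71, -0.73 and -0.92 in WT mice, without overlap, and a Log2 FC of -1.83 ± 0.19 (SE). For H3c13 the levels were -3.38, -3.67, -2.82 and -3.65 against -2.26, -2.30, -2.18 and -2.04, and the Log2 FC was -1.18. H3c7 was dim, with a value in 2 of 4 TgproNGF#3 mice and in 4 of 4 WT mice, and its Log2 FC of -1.11 rests on those arrays. The probe of H3c11 was well above background in 4 of 4 WT mice and in 0 of 4 TgproNGF#3 mice, and was at least 1.69-fold higher in WT, set against the measured TgproNGF#3 signal or the lowest signal well above background on the array, whichever was higher. The brightest replication-dependent H3 probe, H3c4 (Hist1h3d), was at 1.31 to 1.65 in TgproNGF#3 and at 1.52 to 1.77 in WT mice, which overlap, with a Log2 FC of -0.20.

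Histones H2A and H2B, which pair with each other on the outside of the core, showed a split within each type. H2ac4 had the largest Log2 FC of all histone probes at 3 months, -3.44 ± 0.71 (SE), with levels of -5.51, -3.12, -3.08 and -6.17 in TgproNGF#3 and of -0.14, -1.72, -1.55 and -0.70 in WT mice. The groups did not overlap, and TgproNGF#3 replicates 1 and 4 were well below replicates 2 and 3. In contrast, H2ac12 had levels of 3.50, 3.61, 3.51 and 3.21 against 3.91, 3.65, 3.51 and 3.85, which overlap, and a Log2 FC of -0.28 ± 0.15 (SE). The probes of H2ac10, H2ac19, H2ac20 and H2ac11 gave Log2 FC of -0.23, -0.20, -0.25 and -0.45. The bright H2A probes share arrays and may share targets, so they too count as few independent readings. H2ac15 (Hist1h2ak) had a bright probe at -0.26 and a dimmer one, A_52_P498208, at -1.06, and the dimmer probe did not overlap between genotypes, so the 2 probes of this gene disagree on the call.

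For H2B, H2bc6 (Hist1h2be) was called lower, with levels of -2.29, -2.44, -2.21 and -2.80 in TgproNGF#3 against -1.09, -1.37, -1.48 and -1.14 in WT mice and a Log2 FC of -1.17 ± 0.17 (SE). H2bc18 (Hist2h2bb) was measured in 2 of 4 TgproNGF#3 mice, at -5.80 and -5.57, and in all WT mice, at -4.49 to -2.97, with a Log2 FC of -1.83. H2bc4 (Hist1h2bc), the brightest H2B probe, did not overlap either, at 2.01 to 2.80 against 2.89 to 3.11, but its Log2 FC of -0.63 was under the fold threshold. The remaining tested H2B probes (H2bc1, H2bc14, H2bc21 and H2bc23) lay between -0.44 and -0.04.

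The linker histones, which bind DNA between nucleosomes, gave 1 call among replication-dependent genes and 1 among variants at 3 months. H1f4 (Hist1h1e) had levels of -3.22, -1.96, -2.97 and -4.31 in TgproNGF#3 against -0.72, -2.16, -1.58 and -1.17 in WT mice. The groups overlapped by 1 mouse each, and the Log2 FC was -1.71 ± 0.47 (SE). H1f5 was at -0.72 ± 0.24 (SE). H1f0, which encodes the H1.0 variant of non-dividing cells, was measured in 3 mice of each genotype, with levels of -5.24, -4.81 and -6.30 against -3.84, -3.41 and -5.02, which overlap, and a Log2 FC of -1.36 ± 0.50 (SE). It was no longer called without TgproNGF#3 replicate 1 or 4 or without WT replicate 2 or 3, with values of -1.46, -0.94, -1.24 and -1.02. H1f10, another linker variant, was at 0.31 and H1f8, the oocyte linker histone, at -0.79, and neither was called.

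The variant H3.3 is encoded by both H3f3a and H3f3b, and only H3f3a gave a call. Its probe A_55_P2078266 had levels of 0.77, 0.91, 0.65 and 0.16 in TgproNGF#3 and of 2.26, 2.43, 2.44 and 2.23 in WT mice of 3 months, without overlap, and a Log2 FC of -1.72 ± 0.18 (SE). The brighter H3f3a probe, A_55_P2065369, did not overlap either, at 1.68 to 2.04 against 2.32 to 2.40, with a Log2 FC of -0.55 ± 0.13 (SE). The 2 probes therefore agree in sign but not on the call. The 3 probes of H3f3b gave -0.10, 0.42 and -0.08.

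The H2A variants were not called at 3 months. H2az1, which encodes H2A.Z, was at levels of 3.33 to 3.73 in TgproNGF#3 and at 3.71 to 3.94 in WT mice, with a Log2 FC of -0.27 ± 0.14 (SE). At its second probe, A_55_P2099479, the Log2 FC was -0.38 ± 0.16 (SE), and the highest TgproNGF#3 mouse lay just below the lowest WT mouse. H2az2 gave -0.21 and -0.42 at its 2 probes and H2aj -0.19 and -0.27. H2ax, the variant that is phosphorylated at DNA breaks, was at 0.23 ± 0.13 (SE). The macroH2A genes Macroh2a1, Macroh2a2 and Macroh2a3 gave values between -0.01 and 0.30. The probes of H1f7, H2ab2 and H2al2a had too few values for a test at 3 months.

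**Figure D2:**
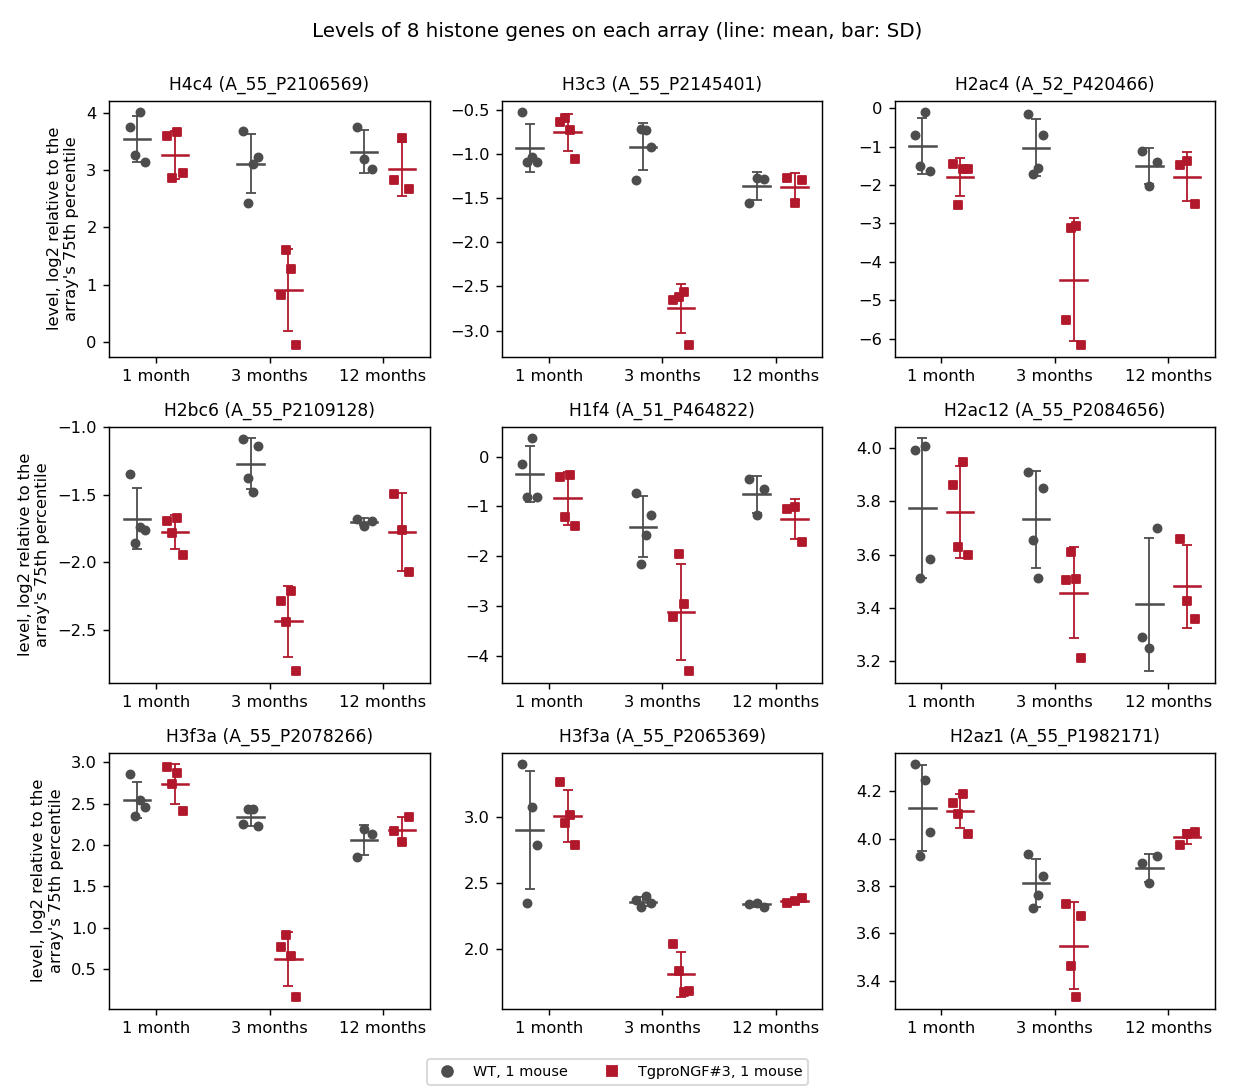
Level of 9 probes of 8 histone genes (vertical axis, log2 relative to the 75th percentile of the array, a separate scale in each panel) in each mouse by age and genotype. Lines are means and bars SD over 4 mice (3 at 12 months). At 3 months TgproNGF#3 mice lie below all WT mice for H4c4, H3c3, H2ac4, H2bc6 and both H3f3a probes and overlap with them for H1f4, H2ac12 and the H2az1 probe shown, A_55_P1982171.

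At 1 and 12 months, which were not the contrast that led to the family, no histone probe was called. At 1 month 66 probes were tested, with Log2 FC from -0.81 to 0.90, an adjusted p of 1 throughout (limma, Benjamini-Hochberg) and 0 probes under an unadjusted p of 0.05, where 3.47% of all probes were, while 0.328% of all probes were called lower and 0.242% higher. With the replicate number as a block, 6 histone probes were under an unadjusted p of 0.05 at 1 month, 5 of them lower (H2ac4, H4c17, H2bc18, H1f4 and H4c3) and 1 higher (H2ac21), with Log2 FC of -0.81 to 0.64, a lowest adjusted p of 0.652 (limma) and 0 called, where 5.91% of all probes were under that p. At 12 months 58 probes were tested, from -0.51 to 0.35, with a lowest adjusted p of 0.558 and 0 probes under an unadjusted p of 0.05, where 9.05% of all probes were, and 0.992% of all probes were called lower and 0.311% higher. Without TgproNGF#3 replicate 1 of 12 months 5 histone probes were under an unadjusted p of 0.05, as were 8.03% of all probes, and without any other single mouse of that age 0 to 2 were. At 1 month this count was 0 to 3 without 1 mouse, with 3 without replicate 3 of TgproNGF#3 or replicate 2 of WT mice (4.59% and 4.08% of all probes), and 1 histone probe was called lower without WT replicate 4. With all mice, no probe of the whole array passed an adjusted p of 0.05 at either age. At 12 months 263 did without WT replicate 3, 7 without TgproNGF#3 replicate 1 and 1 without TgproNGF#3 replicate 2, none of them a histone probe. A difference of 3 against 3 mice cannot go below an exact p of 0.1. The median of replication-dependent probes was -0.08 at 1 month and -0.12 at 12 months, beside 0.07 and 0.01 for all probes. With 1 mouse left out it ran from -0.16 (without TgproNGF#3 replicate 3) to -0.01 (without WT replicate 3) at 1 month. At 12 months its lowest value was -0.22, when TgproNGF#3 replicate 1 was left out, and its highest was -0.04, when TgproNGF#3 replicate 3 was left out and the median of all probes was -0.03.

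H4c4 at 1 month had levels of 3.60, 2.87, 3.66 and 2.95 in TgproNGF#3 and of 3.75, 3.26, 4.01 and 3.14 in WT mice, which overlap. Its Log2 FC was -0.27 ± 0.27 (SE; limma adjusted p = 1; two-sided exact permutation p = 0.4). The labels name no pairing, but same-numbered mice deviated together at this age and were taken as pairs. H4c4 was lower in TgproNGF#3 in 4 of 4 pairs (exact permutation p over pairs = 0.125, the smallest that 4 pairs allow). The share of all probes lower in 4 of 4 pairs was not computed. The Log2 FC of H4c4 ran from -0.41 without WT replicate 4 to -0.12 without WT replicate 3. At 12 months the levels were 2.83, 3.55 and 2.67 against 3.75, 3.19 and 3.03, and the Log2 FC was -0.30 ± 0.28 (SE; limma adjusted p = 0.704; exact permutation p = 0.5). Without WT replicate 1 this became -0.09, and without TgproNGF#3 replicate 2 it became -0.57. H2ac4 was at -1.45, -2.53, -1.59 and -1.59 against -0.69, -1.51, -0.10 and -1.62 at 1 month, with a Log2 FC of -0.81 ± 0.37 (SE; limma adjusted p = 1; exact permutation p = 0.2). At 12 months its Log2 FC was -0.26 ± 0.35 (SE; limma adjusted p = 0.787). H4c3 gave -0.47 and -0.32 and H4c9 -0.35 and 0.19 at 1 and 12 months. At 1 month H4c3 was lower in 4 of 4 pairs, and H4c9 and H2ac4 were lower in 3 of 4 (exact permutation p over pairs = 0.125, 0.25 and 0.25). The genotype difference at 12 months minus that at 1 month was tested for 58 histone probes, and 0 passed an unadjusted p of 0.05, an adjusted p of 0.05 or the call rule (limma), while 6.27% of all probes passed that unadjusted p and 1.75% were called lower and 0.55% higher. For H2ac4 this difference was 0.54 ± 0.55 (SE; limma adjusted p = 0.987), and it ran from 0.25 without WT replicate 3 of 1 month to 0.91 without TgproNGF#3 replicate 3 of 12 months.

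In WT mice the values of 12 months against 1 month moved with the scaling, and the median of all probes was itself at -0.37. Of 59 tested histone probes, 1 was called lower and 1 higher, against 3.22% and 1.02% of all probes, and 10 were lower and 1 higher at an adjusted p under 0.05, against 25.1% and 2.43% of all probes. The 10 became 31 with median scaling, where 54.6% of all probes were lower, 20 with quantile normalization, where 51.1% were, and 0 with the authors' values, where 2.18% were. They became 1 without WT replicate 1 of 12 months, 3 without WT replicate 1 of 1 month and 16 without WT replicate 2 of 1 month, where 4.63%, 14.8% and 31.9% of all probes were lower. The median over histone probes was -0.36. H1f5 was called lower, from -3.39 ± 0.15 (SD, n = 4) at 1 month to -4.44 ± 0.37 (SD, n = 3) at 12 months, a Log2 FC of -1.05 ± 0.23 (SE; limma adjusted p = 0.0113), with a level of -4.26 ± 0.41 (SD, n = 4) at 3 months. The H1f5 value was -0.63 with the percentile over all spots, -0.64 with the authors' values and -0.52 with normexp, and it fell short of the fold threshold without WT replicate 1 or 2 of 12 months (-0.97 and -0.93). H2bc3, dim and measured on 3 and 2 of these arrays, was called higher (1.21; limma adjusted p = 0.0894). H3c13 was at -0.68 (limma adjusted p = 0.00987), H4f16 at -0.95 (limma adjusted p = 0.0397) and H1f6, the testis linker histone, at 0.82 (limma adjusted p = 0.016). Without WT replicate 1 of 12 months the adjusted p rose to 0.0545 for H1f5, 0.0612 for H4f16 and 0.0762 for H1f6, and for H4f16 it was also over 0.05, at up to 0.111, without either other WT mouse of 12 months or WT replicate 1 or 3 of 1 month. The value of H1f6 fell to 0.49 (limma adjusted p = 0.106) with median scaling and to 0.07 (limma adjusted p = 0.803) with quantile normalization. With the percentile over all spots H3c13 was at -0.26 and H4f16 at -0.52 (limma adjusted p = 0.321 and 0.323). With the authors' values they were at -0.27 and -0.53 (limma adjusted p = 0.334 and 0.293). When scaling used the 75th percentile of every non-control spot, the median of all probes was 0.06, and no histone probe was lower at an adjusted p under 0.05 by that scaling. The brightest H4c4 probe was at 3.54 ± 0.41 (SD, n = 4), 3.11 ± 0.52 (SD, n = 4) and 3.32 ± 0.38 (SD, n = 3) in WT mice of 1, 3 and 12 months, which do not differ beyond their spread.

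Markers of dividing cells were mostly close to 0 in Log2 FC at 3 months. Of 30 such genes with a probe, 24 were tested, 0 were called in either direction, and the median Log2 FC was -0.02. Of all probes 6.12% were called lower and 0.643% higher at this age. Mki67 was at -0.12, the replication clamp Pcna at -0.03 and the helicase subunit Mcm2 at 0.12, none past an adjusted p of 0.05. Gins2 and Birc5, 2 of the 24, were lower by the adjusted p, at -0.68 each (limma adjusted p = 0.0258 and 0.0358), as were 6.85% of all probes. The summed linear level of the list ranged from 7.18 to 9.47 in TgproNGF#3 and from 8.13 to 8.43 in WT mice. At 12 months 1 of the 24 was called lower, and at 1 month 0 of 28, beside 0.992% and 0.328% of all probes. The 14 tested markers of progenitors and newborn granule neurons had 0 calls and a median of -0.09. The 12 hippocampal neuron markers had a median of -0.30 and 1 call, Spock1 at -2.25 (limma adjusted p = 0.00415), and Fibcd1 and Grik4 were lower by the adjusted p (-0.93 and -0.64). Their summed linear level ranged from 83.1 to 111 in TgproNGF#3 and from 95.4 to 133 in WT mice. The lists of glia, endothelium, leptomeningeal fibroblasts and red blood cells had medians between -0.19 and 0.33 and 1 call, Hbb-b1 at -2.17. Of the oligodendrocyte precursor markers, Gpr17 was lower (-0.71; limma adjusted p = 0.0108) and Lhfpl3 higher (0.61; limma adjusted p = 0.0362). The part of these markers in the histone values was not tested. In these bulk samples fewer cells of a type and less RNA per cell cannot be told apart.

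Of 37 tested genes for histone mRNA 3′ processing and histone transcription, 1 was called lower and 1 higher at 3 months, and the median was -0.10. Of all probes 6.12% were called lower and 0.643% higher. By the adjusted p 2 of the 37 were lower and 1 higher, beside 6.85% and 1.57% of all probes. Cpsf2, a subunit of the complex that cleaves histone pre-mRNA, was higher (1.60 ± 0.24, SE; limma adjusted p = 0.00567). Nfyb, a subunit of the factor that binds CCAAT, was called lower (-1.06; limma adjusted p = 0.0538), Zcchc8 and the cell cycle kinase gene Cdk2 were lower by the adjusted p (-0.65 and -0.78), and Slbp was at 0.58 (limma adjusted p = 0.159). Of 41 tested histone chaperones, only Hjurp, the chaperone of the centromeric H3 variant, was called, at -2.10 (limma adjusted p = 0.019). The S-phase chaperone subunits Chaf1a and Chaf1b were at 0.32 and 0.37 and were not called. No gene of the processing or chaperone lists was called at 1 or 12 months. The 8 choroid plexus markers had a median of -0.86 at 3 months with 0 calls, and their summed linear level ranged from 6.35 to 136 in TgproNGF#3 and from 74.2 to 114 in WT mice. Their part in the histone values was not tested.

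**Figure D3:**
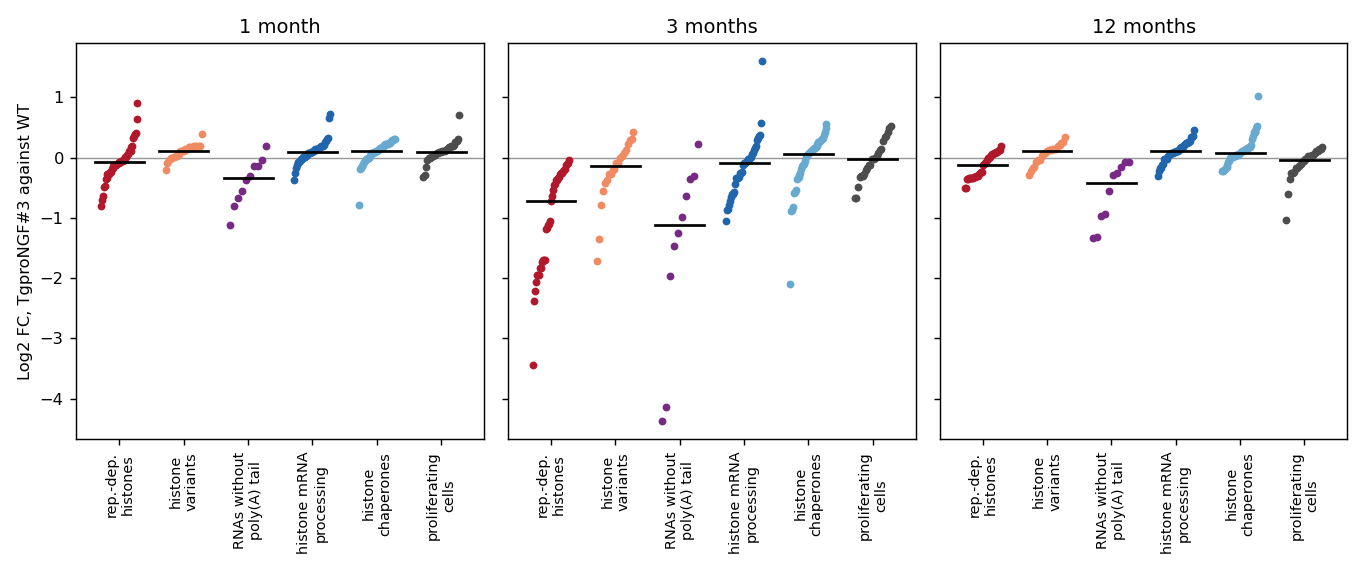
Log2 FC (vertical axis) of each tested probe or gene of 6 lists at 1, 3 and 12 months, with the median as a black line. At 3 months the medians of replication-dependent histones (-0.72) and of RNAs without a poly(A) tail (-1.12) lie below those of the variants (-0.14), the processing genes (-0.10), the chaperones (0.07) and the proliferation markers (-0.02).

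Of RNAs from other families that carry no poly(A) tail, 9 of 10 measured had a Log2 FC below 0 at 3 months, where the median of all probes was -0.12. The same held for 9 of the 10 at 1 month and for all 10 at 12 months. This list, the 10 measured genes that RefSeq classes as small nuclear, small nucleolar, ribosomal, RNase MRP or telomerase RNA, was drawn up after values had been seen, and is given without a test. The U1 RNA Rnu1b6, part of the splicing machinery, had levels of -1.56, -0.30, -0.25 and -1.71 in TgproNGF#3 and of 4.02, 2.40, 3.21 and 4.05 in WT mice, a Log2 FC of -4.37 ± 0.46 (SE). The U2 RNA Rnu2-10 was measured in 3 TgproNGF#3 mice, at -6.66 to -5.67, and in 4 WT mice, at -2.93 to -1.11, a Log2 FC of -4.14. For both, every TgproNGF#3 value was below every WT value, and for Rnu1b6 replicates 1 and 4 were the lowest, as for H4c4 and H2ac4. The 28S ribosomal RNA Rn28s1 had levels of 1.83, 4.63, 5.36 and 1.84 in TgproNGF#3 against 5.86, 4.996, 5.01 and 5.63 in WT mice, so its Log2 FC of -1.96 came mainly from replicates 1 and 4, and replicate 3 lay within the WT range. Snora74a was at -1.47, Rnu3b1 at -1.25 and Rmrp at -0.99, while Rn4.5s (-0.31) and Terc (0.22) were closer to 0.

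Of the 10 RNAs, 5 passed the call thresholds as lower at 3 months, 0 at 1 month and 2 at 12 months, beside 6.12%, 0.328% and 0.992% of all probes, and the medians at 1 and 12 months were -0.34 and -0.42. Rnu1b6 was at -0.80 at 1 month and -0.98 at 12 months. On the 14 arrays of 1 and 12 months, deviations of the brightest H4c4 probe from its group mean had Pearson's r of 0.72 with those of Rnu1b6, 0.67 with Rnu2-10, 0.84 with Rmrp, 0.02 with Rn4.5s and -0.26 with Terc. The median r was 0.50 over the 10 RNAs, 0.43 over 35 other replication-dependent probes, 0.17 over 20 variant probes and 0.08 over all 31544 other probes. These points share arrays and scaling, so the values are a description. At 1 month replicates 1 and 3 of both genotypes were high for H4c4, Rnu1b6 and H2ac12, and replicates 2 and 4 low. The part of labelling or RNA preparation in the histone values was not tested.

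**Figure D4:**
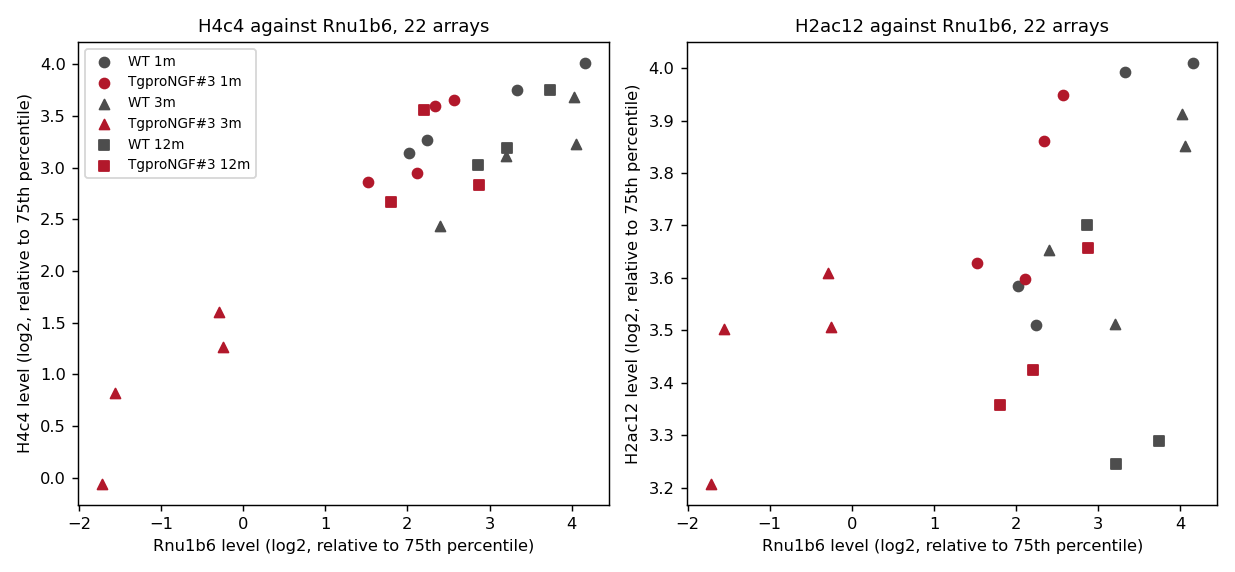
Level of H4c4 (left) and of H2ac12 (right) against the level of the U1 RNA Rnu1b6 on the 22 arrays, on log2 scales relative to the 75th percentile of the array. The 4 TgproNGF#3 arrays of 3 months are low in both H4c4 (-0.06 to 1.60) and Rnu1b6 (-1.71 to -0.25), whereas their H2ac12 levels (3.21 to 3.61) lie within the range of the other arrays or just below it.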

How the data were processed

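RNA of 22 mice was hybridised to one-colour Agilent arrays, and the deposited scanner files hold processed signal intensity from Feature Extraction 10.7.3.1. The authors also deposited a table of log2 values, which served as an alternative. Controls, outliers and spots too close to background were left out, log2 intensity was set relative to the 75th percentile of the kept spots of each array, and spots of a probe were averaged. The number of mice limits the precision, and no spot was saturated. Probes were named through RefSeq accessions (28026 of 55681 matched). Members, lists and tests were chosen with earlier results of these data known. Each age was fitted with limma 3.58.1 in R 4.3.3 on probes with at least 2 values per group, and Benjamini-Hochberg adjustment ran over all tested probes. On simulated arrays with 200 probes changed by 2 on the log2 scale, 99.5% were recovered at 1 month and 99.5% at 12 months. That change is larger than every histone Log2 FC of those ages, so these shares do not bear on smaller differences.

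Named genes were every tested variant, the 8 replication-dependent genes measured on most arrays (ties by the higher mean level, which decided here), the 5 largest called changes each way per comparison, and genes measured in 1 genotype only. Other members called at 3 months, and H3c4, H4c8 and further H2A and H2B probes, were named after their values were seen. Same-numbered mice of 1 month deviated together (r of 0.51, 0.27, 0.19 and 0.21 for replicates 1 to 4), so the numbers were taken as pairs at 1 month. The r were -0.36 to -0.02 at 3 months and -0.32 to 0.05 at 12 months, where they share only a number. Alternatives were other filters, scalings, background corrections, blocks by replicate and array row, and leaving out each mouse. A check of the genotype labels by expression is not reported here.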

Additional observations from a re-analysis of the deposited data

Results flagged for a closer look

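Among 89 groups of 4 mice, over the histone probes shown mouse by mouse and 2 small nuclear RNAs, 3 held a mouse far from the other 3, and chance gives about 1 in 20. In WT mice of 1 month the gap of H3c3 over the whole range was 0.89, from replicate 1 at -0.53. In TgproNGF#3 mice of 3 months it was 0.843 for H3c3, from replicate 4 at -3.17. In TgproNGF#3 mice of 1 month it was 0.874 for H2ac4, from replicate 2 at -2.53. The genotype difference at 12 months minus that at 1 month passed an adjusted p of 0.05 (limma) for 0 histone probes.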

How the results depend on the processing

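At 3 months the count of histone probes called lower stayed within 1.5 times the 20 reported and 0 were called higher under every alternative run, with 18 to 20 lower when 1 mouse was left out and 20 with the replicate block. The block changed no call at 1 month, where the numbers were taken as pairs, or at 12 months, with 0 called in both directions. The exact test over pairs at 1 month was chosen after seeing the data, and no p was under 0.05. H1f0 (-0.91), H2ac15 (-0.99), H4c17 (-0.63), H3c7 (-0.44) and H2bc18 (-0.95) were not called after normexp, H1f0 with quantile normalization (-1.18) or dim spots kept (-1.02), H2ac15 and H4c17 with the percentile over all spots (-0.93 and -0.95) and H2ac15 with the authors' values (-0.97), and each also lost the call without some mouse (H2ac15 at -0.90 without TgproNGF#3 replicate 1 and -0.95 without 4, H4c17 at -0.98 without WT replicate 1, H3c7 at -0.96 without WT replicate 2, and H3c7 and H2bc18 untested without TgproNGF#3 replicate 2 or 3). At 3 months H1f0, H3c7, H2bc18 and H4c17 were also not called with the authors' values or on probes well above background on every array, because they were not tested there. Leaving out WT replicate 4 gave 1 histone probe called lower at 1 month, so the range without 1 mouse was 0 to 1. At 1 month H4c3 ranged from -0.63 (without WT replicate 2) to -0.25 (without WT replicate 3), H4c9 from -0.52 to -0.19 (without TgproNGF#3 replicates 3 and 2) and H2ac4 from -1.02 to -0.52 (without WT replicates 4 and 3). At 12 months H4c4 ranged from -0.57 to -0.09 and H4c3 from -0.54 to -0.05 without 1 mouse, both nearest 0 without WT replicate 1. H2ac4 ranged from -0.52 to 0.10 without 1 mouse, positive without TgproNGF#3 replicate 3, and H4c9 from -0.042 to 0.33, negative without WT replicate 2 and at -0.074 with array row as a block. For the 12-month difference minus that of 1 month, 1 probe was called higher after quantile normalization, 1 lower with dim spots kept, and 0 to 1 higher without 1 mouse. In WT mice, 12 months against 1 month, the 1 lower and 1 higher probe became 0 and 2 with the percentile over all spots, 5 and 0 with median scaling, 7 and 0 with quantile normalization and 0 and 0 with the authors' values. They became 2 lower with dim spots kept, 0 lower with normexp and 0 higher on probes well above background on every array. The counts were 11 and 2 at a fold threshold of 0.5, 10 lower at an adjusted p under 0.05 (1 to 16 without 1 mouse), and 0 to 2 lower and 0 to 1 higher without 1 mouse. Median scaling moved the median of all probes in WT mice to -0.70 and the authors' values to 0.02. The causes were not tested. Dim probes limit H3c7, H2bc18, H4c17, H1f0 and H2bc3 to some mice.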
